A study of Rattus norvegicus with 30 samples.

Results

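The control peak lists of 2 antibodies, trimethylated lysine 4 of histone H3 (H3K4me3) and total histone H3, were set against each other in the cortex of rat embryos at E14.5. All intervals of both lists were taken, which are 169297 total H3 intervals and 113056 H3K4me3 intervals, 282353 of the 1417597 intervals in the 10 lists of the series. A total H3 interval was said to carry H3K4me3 when the intervals shared at least 1 bp. The comparison addresses how far the listed H3K4me3 peaks lay where total H3 peaks were listed.

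H3K4me3 is laid down by SET1 and MLL methyltransferases around the start sites of active and poised genes, and it is read by factors that recruit the transcription machinery. A total H3 antibody binds the histone whatever its modification, so its signal reports where nucleosomes were recovered. A peak in such a list is a place with more fragments than its surroundings, and nucleosomes are present between peaks too.

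The embryos came from Wistar dams, an outbred rat strain. Control dams were fed normal chow, and HFD dams were fed a high fat diet and were obese before mating with males on normal chow. ChIP-seq was done on sonicated cortex chromatin with 5 antibodies in both groups, with 3 libraries per antibody and diet, 30 in all. A library held the cortices of a litter combined, a mixture of progenitors, neurons and other cells, in which a mark in more cells and more of the mark per cell cannot be told apart.

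The authors deposited 1 list for the 3 libraries of an antibody and diet, so no value below has a spread between replicates and no test was run. Ranges in parentheses after a share are 95% Wilson intervals and stand for counting error alone. Replicate 3 of control total H3 carried the control diet in its title and the high fat diet in its treatment label. It was kept as control, and the list cannot be divided to leave it out. The identity of the tissue was not checked against marker genes, since no gene annotation of the rn6 build was used, and intervals are named by position only.

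The number of fragments stacked at each summit, its pileup, was recovered from the listed fold enrichment and p. The most frequent background was 1.232 fragments per base for H3K4me3 and 1.015 for total H3. The strongest summit of an interval held a median of 8 fragments in the H3K4me3 list and 11 in the total H3 list, and the lowest was 4 in both. The H3K4me3 list held more marginal calls, with 73.6% of its intervals at a q of at most 0.05 against 92.4% for total H3. Intervals of the lists were similar in width, with medians of 469 bp for H3K4me3 and 450 bp for total H3, and quartiles of 358 and 723 bp and of 346 and 686 bp.

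The mark lay on slightly fewer total H3 intervals than it left free. H3K4me3 lay on 82225 of the 169297 total H3 intervals, or 48.6% (48.3% to 48.8%). In the other direction 82053 of the 113056 H3K4me3 intervals, or 72.6%, had a total H3 interval, and 31003 had none, or 27.4% (27.2% to 27.7%). The lists covered 95.9 Mb for total H3 and 67.1 Mb for H3K4me3 and shared 46.0 Mb, which was 47.9% of the total H3 bases and 68.6% of the H3K4me3 bases. Few calls rested on the edge of the rule. Of the carrying total H3 intervals, 45 shared 10 bp or less and 6 shared a single base, and 36 of those without the mark came within 10 bp of an H3K4me3 interval.

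Where the lists met, they met interval by interval. A carrying total H3 interval had a single H3K4me3 partner in 99.1% of cases, 2 in 739 cases and 3 in 6. H3K4me3 intervals had a single total H3 partner in 98.9% of cases. The median carrying total H3 interval had 85.3% of its length inside H3K4me3, with quartiles of 67.7% and 97.4%, and 18.96% lay wholly inside. The median H3K4me3 interval with a partner had 91.5% of its length in total H3, and 28.5% lay wholly inside.

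The carrying share rose with the width of the total H3 interval. Of the 97201 intervals under 500 bp, 30.2% (29.9% to 30.5%) carried H3K4me3. The share was 68.3% (67.9% to 68.7%) of the 55961 intervals from 500 bp to under 1000 bp and 90.6% (90.1% to 91.0%) of the 15354 from 1000 bp to under 2000 bp. Among the 781 intervals of 2000 bp or more, 773 carried the mark, or 98.98% (98.0% to 99.5%). Intervals of 1000 bp or more thus carried H3K4me3 3.02 times as often as those under 500 bp.

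A wide interval has more bases that can meet another list. The share was therefore also taken at a single base, the strongest summit, which lay inside an H3K4me3 interval in 45.3% of all total H3 intervals. By width this share was 28.5%, 63.4%, 83.1% and 92.8%, so the order of the classes was the same at 1 base as for the whole interval.

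The number of summits in an interval, which counts the separate maxima that the peak caller found, went the same way. Total H3 intervals with 1 summit numbered 149565 and carried H3K4me3 in 43.5% of cases (43.2% to 43.7%). With 2 summits the share was 85.1% (84.5% to 85.6%) of 16044 intervals, and with 3 it was 95.04% (94.2% to 95.8%) of 2843. It reached 98.6% of 666 intervals with 4 summits and 99.4% of 179 with 5 or more. Intervals with 3 or more summits carried the mark 2.21 times as often as those with 1. At the strongest summit alone the share was 40.8%, 77.4%, 87.5% and 93.1% for 1 to 4 summits. It was 92.7% for 5 or more, where it did not go on rising.

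**Figure D1:**
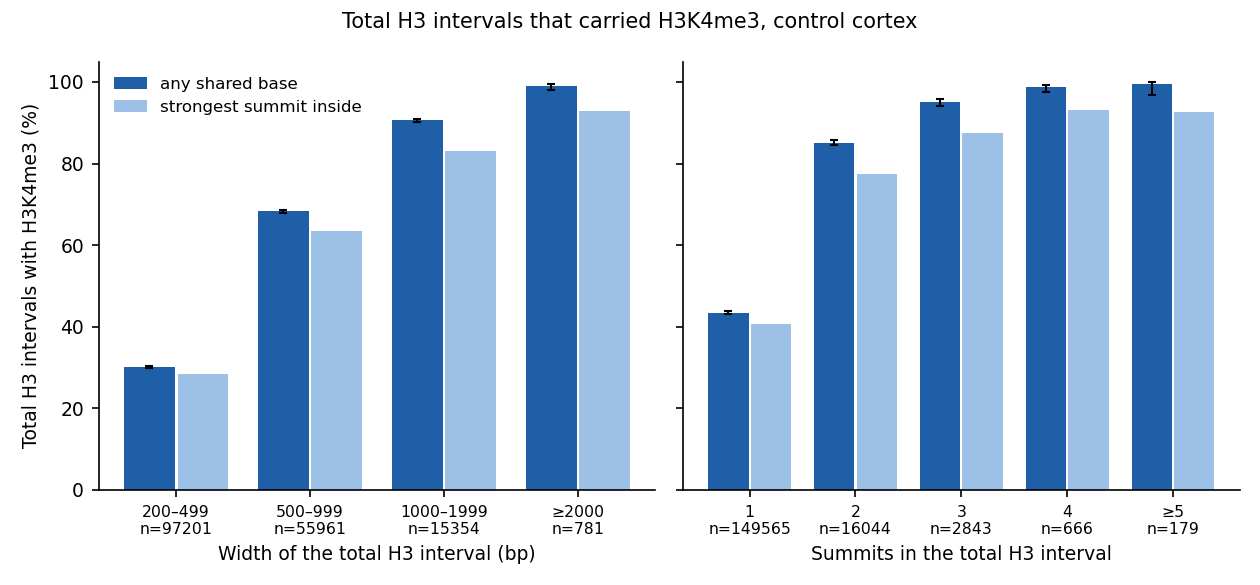
Share of control total H3 intervals with H3K4me3 (percent, vertical axis) by width in bp (left) and by number of summits (right), with the number of intervals under each class. Dark bars count any shared base with 95% Wilson intervals and light bars count the strongest summit inside an H3K4me3 interval. By any shared base the share goes from 30.2% to 98.98% over the widths and from 43.5% to 99.4% over the summit counts. The light bars keep the order of the widths. Over the summit counts they go from 40.8% at 1 to 93.1% at 4 and 92.7% at 5 or more.

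Width and summit count are tied to each other. Within the 1-summit intervals the share still went from 30.2% under 500 bp to 66.6% from 500 to under 1000 bp and 84.3% from 1000 to under 2000 bp. Within a width class the summit count made less difference. From 500 to under 1000 bp the share was 66.6% for 1 summit, 78.3% for 2 and 76.1% (66.3% to 83.8%, n = 88) for 3. From 1000 to under 2000 bp it was 84.3%, 92.3% and 95.3%.

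Both features also move with the strength of the peak, and the carrying share moved with it. Over 5 equal classes by −log10 q the share was 20.9%, 30.1%, 41.3%, 59.1% and 91.4%, from the weakest to the strongest. Within each class the wider intervals carried the mark more often by any shared base. In the weakest class the share was 18.0% under 500 bp, 31.8% from 500 to under 1000 bp and 47.2% (42.2% to 52.3%, n = 373) from 1000 to under 2000 bp. In the strongest class the same widths had 68.3%, 94.2% and 99.3%, and all 540 intervals of 2000 bp or more carried H3K4me3. The step by summit count held within classes too. By any shared base the share was 20.6% against 38.3% for 1 and 2 summits in the weakest class and 88.5% against 98.6% in the strongest. At the strongest summit alone it was 16.7% against 23.5% and 87.8% against 97.3%.

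**Figure D2:**
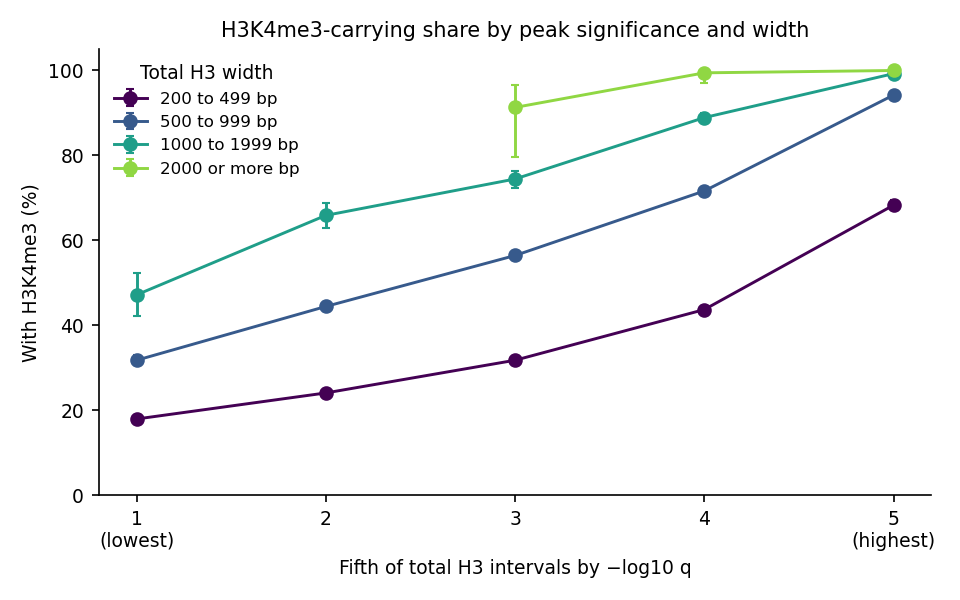
Share of control total H3 intervals with H3K4me3 (percent, vertical axis) in 5 equal classes by −log10 q (horizontal axis, weakest to strongest), with a line for each width class and 95% Wilson intervals. The share counts any shared base. Points with fewer than 20 intervals are left out. In every class the wider intervals lie higher, from 18.0% for the narrowest intervals of the weakest class to 100% for the widest of the strongest.

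The carrying share also rose with the height of the strongest summit. Of the total H3 intervals with 4 or 5 fragments at the summit, 16.6% (15.96% to 17.2%) carried H3K4me3. The share was 45.2% at 10 to 14 fragments, 80.1% at 20 to 29 and 98.0% at 30 to 49. It was 99.1% at 50 to 99 and 97.6% (96.1% to 98.5%, n = 659) at 100 or more, where it did not go on rising. H3K4me3 intervals met total H3 at lower heights. Their share with a total H3 interval was 37.1% (36.5% to 37.8%) at 4 or 5 fragments, 87.5% at 10 to 14 and 99.9% of 6466 intervals at 100 or more. The total H3 list was the longer one, and the backgrounds of the lists differed. After total H3 was shortened to its 113056 intervals of highest −log10 q, 60.7% of them carried H3K4me3. Of the H3K4me3 intervals, 39.1% then had no total H3. The part of list length and background in the difference by height was not tested.

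**Figure D3:**
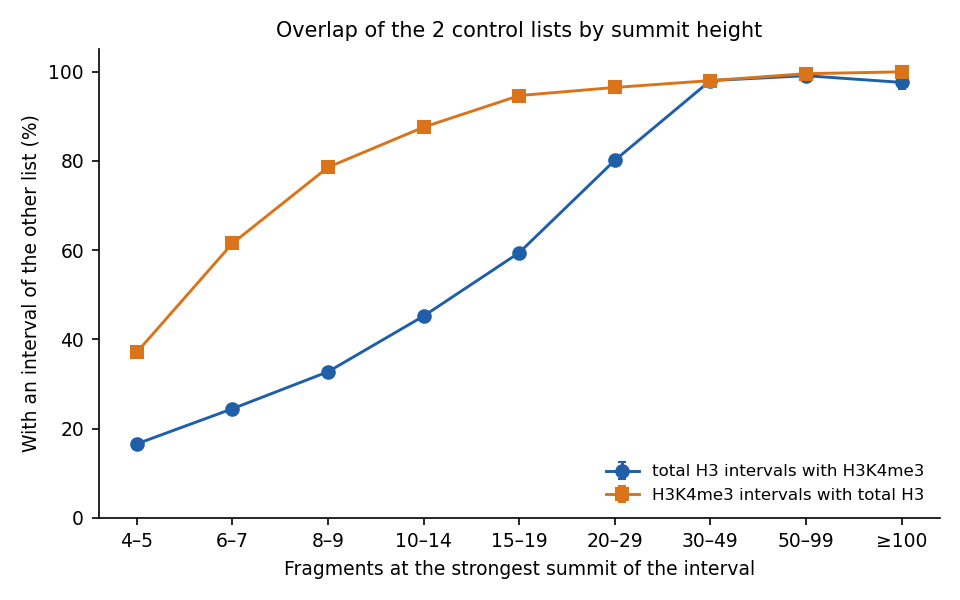
Share of intervals with an interval of the other list (percent, vertical axis) by the number of fragments at the strongest summit (horizontal axis, unequal classes), for total H3 (circles) and H3K4me3 (squares), with 95% Wilson intervals. H3K4me3 lies above total H3 up to 20 to 29 fragments, with 37.1% against 16.6% in the lowest class, and both are at 98.0% at 30 to 49 fragments.

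Carrying and other total H3 intervals therefore differed in size and strength. The carrying ones had a median width of 615 bp (quartiles 428 and 881), 15 fragments at the summit and a fold enrichment of 5.32. Those without the mark had 375 bp (319 and 478), 9 fragments and 3.58. More than 1 summit was found in 20.9% of the carrying intervals and 2.92% of the others. Of those without the mark, 18884 had a −log10 q of at least 5, or 21.7%, against 64.6% of the carrying ones. The total H3 intervals without H3K4me3 were thus not all marginal calls. Of these 18884, 40.3% overlapped H3K4me3 in HFD, against 83.2% of the carrying ones at this cut.

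In the 79681 pairs in which a single interval of each list met, total H3 was the wider one in 56.4% and H3K4me3 in 43.3%, with median widths of 613 and 545 bp. The partner grew with the total H3 interval. Its median width was 486 bp at 1 total H3 summit, 892 bp at 2, 1337 bp at 3, 1788 bp at 4 and 2137 bp at 5 or more. The share of partners that had more than 1 summit themselves went from 3.02% through 30.7% and 55.3% to 76.0% and 86.3%. Median H3K4me3 pileup went from 9 to 15, 35, 67 and 70.5 fragments, while the median total H3 pileup went from 13 to 22, 31, 38 and 38.5. Across the pairs Spearman's rho was 0.64 for width and 0.67 for fold enrichment (n = 79681). Among the pairs of lower H3K4me3 pileup it was 0.35 and 0.38, and among those of higher pileup it was 0.76 and 0.73. These values describe places in 1 genome in cortices of control litters, and neighbouring places are not independent.

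The summits of the lists fell close together. Over all 104020 summits of carrying total H3 intervals, the nearest H3K4me3 summit was a median of 63 bp away (quartiles 25 and 179), and 62.7% lay within 100 bp. In the pairs, the strongest summits were a median of 56 bp apart, with 46.5% within 50 bp and 95.8% within 500 bp. The total H3 summit lay at the higher coordinate in 49.7% of pairs, so the offsets fell about equally to both sides. Overlap itself keeps these distances short. Summits of total H3 intervals without the mark were a median of 4829 bp from the nearest H3K4me3 summit, which the definition of the group also forces upward.

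In carrying intervals with several summits the strongest total H3 summit had the shorter median distance to H3K4me3. Over all summits of these intervals the median distance went from 51 bp for 1 summit to 99, 150 and 167 bp for 2, 3 and 4. The strongest summits stayed at 70, 84 and 88 bp for 2, 3 and 4 summits, whereas the other summits of the same intervals lay 175, 224.5 and 218 bp away. In pairs with 2 total H3 summits, 30.7% of the H3K4me3 partners had more than 1 summit. Where the partner had 1 summit, total H3 summits that lie apart cannot all be near it. The part of unequal summit numbers in these distances was not tested. In the 16282 pairs with 2 or more total H3 summits, the strongest H3K4me3 summit was nearest to the strongest total H3 summit in 64.5% (63.8% to 65.3%). It lay between the outermost total H3 summits in 60.4%. These pairs held a mean of 2.25 total H3 summits, so a summit taken at random would also be the nearest in part of them. Neighbouring total H3 summits of an interval were a median of 461 bp apart, and this spacing was 461 bp with the mark and 463 bp without it. Neighbouring H3K4me3 summits were 504 bp apart.

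**Figure D4:**
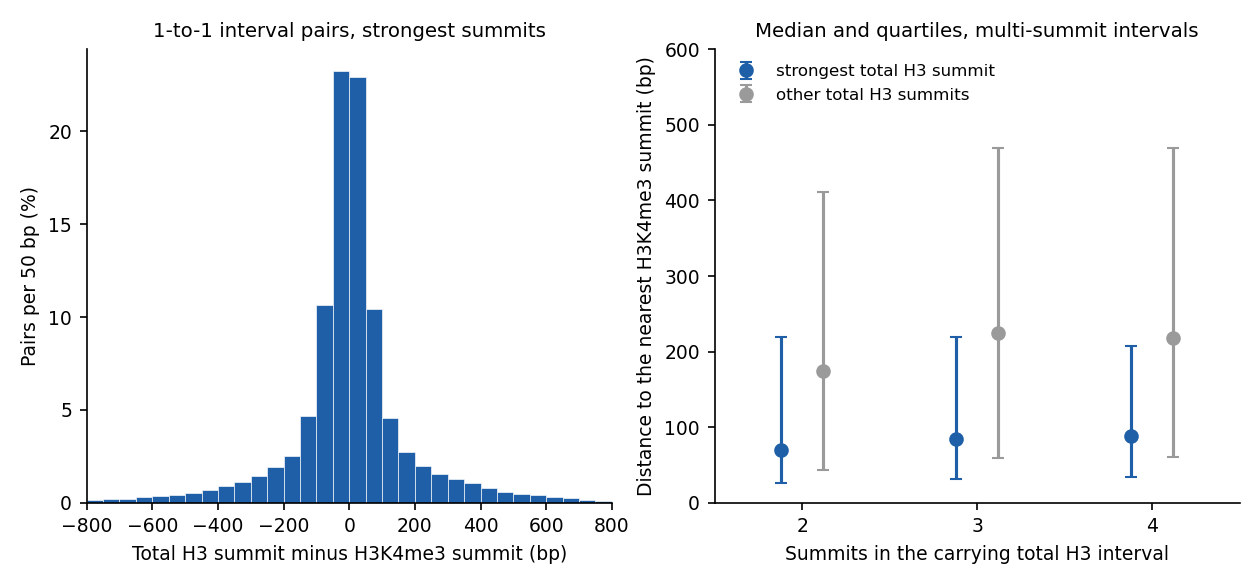
Left, the position of the strongest total H3 summit relative to the strongest H3K4me3 summit (bp, in steps of 50) in 79681 pairs, as percent of pairs. The left plot peaks at 0, with 49.7% of pairs on the higher side. Right, the distance from total H3 summits to the nearest H3K4me3 summit (bp, median with quartiles) in carrying intervals of 2, 3 and 4 summits, where the strongest summits have medians of 70, 84 and 88 bp and the other summits 175, 224.5 and 218 bp.

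The 31003 H3K4me3 intervals without total H3 were narrow and low. Their median width was 369 bp (quartiles 322 and 452) against 547 bp (391 and 828) for those with total H3, a ratio of 0.675. The summit held a median of 6 fragments against 10, and the fold enrichment was 2.69 against 3.98. More than 1 summit was found in 93 of them, against 8450 or 10.3% of those with total H3. A q of at most 0.05 was met by 46.4% and 83.9%. By width, total H3 was present at 58.6% of H3K4me3 intervals under 500 bp, 86.5% from 500 to under 1000 bp and 98.0% from 1000 to under 2000 bp. All 636 H3K4me3 intervals of 2000 bp or more had total H3, and so did all 268 with 4 or more summits. With −log10 q of at least 5 in both lists, 8.60% of H3K4me3 intervals had no total H3, and the ratio by total H3 width given above became 5.36.

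Intervals without a partner are apart from the other list by definition, and their gaps are given as a description. The gap from an H3K4me3 interval without total H3 to the nearest total H3 interval had a median of 3651 bp, with 20.5% within 1000 bp and 75.5% within 10000 bp. For total H3 without H3K4me3 the median gap to H3K4me3 was 4400 bp, with 14.3% and 76.1%.

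The other lists of the control cortex followed the same division. These are pan H4, the core histone H4 whatever its modification, H4K16Ac, an acetylation of H4 found in open chromatin, and H3K27me3, the mark written by Polycomb repressive complex 2. Total H3 intervals overlapped H4K16Ac in 96.3% of cases with H3K4me3 and 77.8% without, pan H4 in 91.4% and 58.8%, and H3K27me3 in 52.4% and 10.9%. H3K4me3 intervals overlapped H4K16Ac in 96.3% of cases with total H3 and 47.2% without, pan H4 in 91.2% and 38.9%, and H3K27me3 in 52.0% and 9.81%. Of the H3K4me3 intervals without total H3, 39.4% overlapped none of the 3 lists, against 1.45% of those with it. At −log10 q of at least 5 the H3K4me3 intervals with and without total H3 overlapped H4K16Ac in 99.5% and 76.2%, pan H4 in 99.2% and 71.9% and H3K27me3 in 88.0% and 46.7%. Matched intervals were also wider, which raises any overlap, and the lists covered 196.1 Mb (H4K16Ac), 117.1 Mb (pan H4) and 48.9 Mb (H3K27me3). The part of width in these differences was not tested.

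The HFD lists, which came from other litters, held smaller shares of the unmatched intervals. The HFD H3K4me3 list held 68.9% of the control H3K4me3 intervals with total H3 and 17.8% of those without. The HFD total H3 list held 89.2% of the carrying total H3 intervals and 55.3% of the others. Of the H3K4me3 intervals without control total H3, 30.6% had total H3 in HFD, against 89.1% of those with it. Of the total H3 intervals without control H3K4me3, 23.8% had H3K4me3 in HFD, against 69.4% of the carrying ones. At −log10 q of at least 5 the differences were smaller, with 94.5% and 48.8% of H3K4me3 intervals in HFD H3K4me3 and 96.6% and 79.6% of total H3 intervals in HFD total H3.

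**Figure D5:**
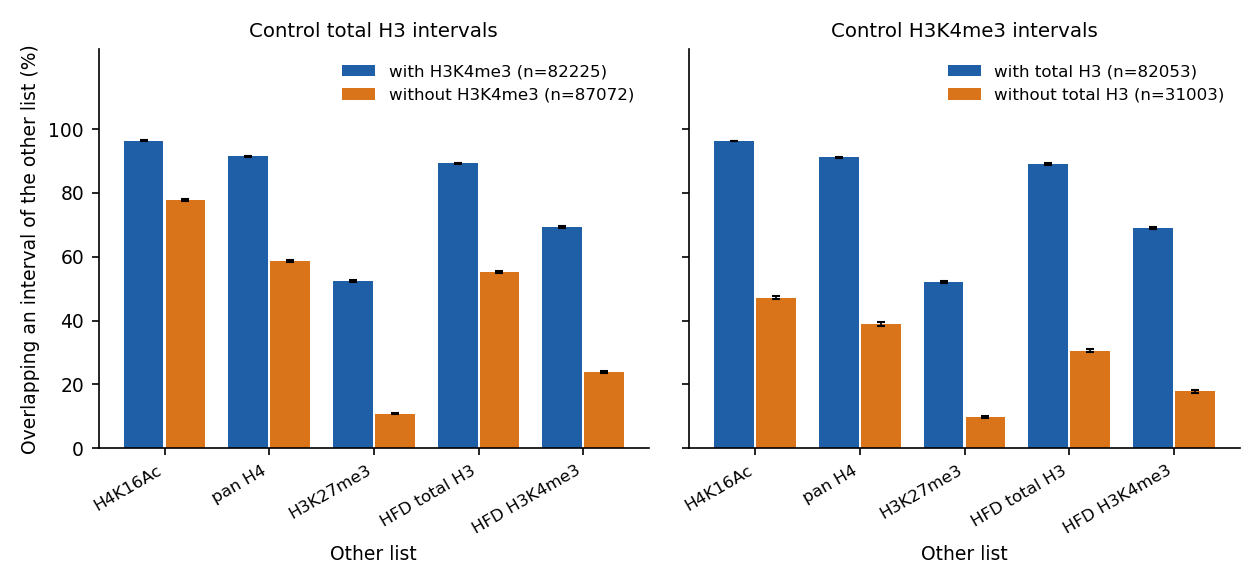
Share of control intervals (percent, vertical axis) that overlap another list (horizontal axis), with 95% Wilson intervals, for total H3 intervals with and without H3K4me3 (left) and H3K4me3 intervals with and without total H3 (right). Matched intervals lie higher for each of the 5 lists, for example 52.4% against 10.9% with H3K27me3 on the left and 68.9% against 17.8% with HFD H3K4me3 on the right.

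A small set of high summits had no partner. Of the 4435 total H3 intervals with 50 or more fragments at the summit, 51 carried no H3K4me3, or 1.15%. They had a median width of 337 bp, against 931 bp for those that carried it, and 49 had 1 summit. Pan H4 overlapped 39 of the 51, total H3 in HFD 44 and H3K4me3 in HFD 27, against 4381, 4378 and 4365 of the 4384 carrying intervals of this height. Of the 11718 H3K4me3 intervals with 50 or more fragments, 29 had no total H3, or 0.247%. Their median width was 399 bp against 1083 bp for the 11689 with total H3. In HFD, 21 of the 29 had H3K4me3 and 13 had total H3, against 11675 and 11670 of the 11689. Pan H4 overlapped 16 of the 29, against 11684 of the 11689, while H3K27me3 overlapped nearly every interval of this height, all 29 and 11674 of the 11689. At −log10 q of at least 5, 739 H3K4me3 intervals had no total H3 interval of any strength. Of these, 57.6% (54.1% to 61.2%) had total H3 in HFD, against 98.5% of the 30280 with control total H3 at this cut. The 739 were still lower and narrower, with medians of 14 against 31 fragments at the summit and 449 against 843 bp.

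Single places show the range, in coordinates of rn6. The most summits in a carrying total H3 interval were 8, which occurred in 3 intervals on the assembled chromosomes. At chr1:187897899-187901763 the total H3 interval of 3865 bp, with 75 fragments at its strongest summit, met an H3K4me3 interval of 3506 bp with 4 summits. At chr1:72363415-72366472 (3058 bp) and chr7:141596374-141599984 (3611 bp), total H3 ran across 2 H3K4me3 intervals each, the widest of which had 1890 bp and 1187 bp. Total H3 and H3K4me3 were present at all 3 places in HFD as well.

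The widest total H3 intervals without H3K4me3 were chr5:151261934-151265003 (3070 bp, 3 summits), chr7:70848085-70850497 (2413 bp, 5 summits) and chr13:109369706-109372034 (2329 bp, 2 summits). Their summits held 29, 20 and 15 fragments, and the nearest control H3K4me3 interval was 4902, 4655 and 1183 bp away. Each had an H3K4me3 interval in HFD. Of the 8 total H3 intervals of 2000 bp or more without the mark, 7 had H3K4me3 in HFD, as did 770 of the 773 carrying ones, and H4K16Ac and pan H4 lay on all 8 and on all 773.

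Among the H3K4me3 intervals without total H3, the highest fold enrichments on the assembled chromosomes were at chr4:57706067-57706720 (15.9, 63 fragments), chr4:170092270-170093000 (13.9, 40 fragments) and chr7:60882762-60883326 (13.6, 36 fragments). Each had 1 summit, lay 6483 to 8568 bp from total H3 and had pan H4 and H3K27me3 in control and both H3K4me3 and total H3 in HFD. The widest ones lay at chr1:109174991-109176696 (1706 bp), chr5:118427599-118429253 (1655 bp) and chr1:39237313-39238878 (1566 bp). They had 6 to 8 fragments at the summit and a fold enrichment of 2.96 to 3.58. The choice by fold or by width fixes part of this contrast. Each of the widest also had pan H4 in control and total H3 in HFD. The 1655 bp and 1566 bp intervals had H3K27me3 in control and H3K4me3 in HFD as well, and the 1706 bp interval had neither. More widely, the 241 H3K4me3 intervals of 1000 bp or more without total H3 had a median of 7 fragments at the summit, against 62 for the 12697 with it.

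Chromosomes differed in how many intervals each list held. Over the 20 autosomes the carrying share of total H3 went from 44.8% (43.6% to 45.9%) on chromosome 12 to 52.9% (51.9% to 53.8%) on chromosome 2. The share of H3K4me3 intervals with total H3 went the other way, 77.3% on chromosome 12 and 68.3% on chromosome 2. Chromosome 12 held 1.73 total H3 intervals per H3K4me3 interval and chromosome 2 held 1.297. On chromosome X 56.8% (55.1% to 58.4%) of total H3 intervals carried the mark, and 74.2% of H3K4me3 intervals had total H3. Both shares were above those of chromosome 2. Chromosome X held 1.31 total H3 intervals per H3K4me3 interval, and its median total H3 width was 532 bp, wider than on any autosome. The carrying share was 65.2% (53.4% to 75.4%, n = 69) on chromosome Y and 58.7% (n = 1082) on unplaced and other sequences.

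A rise with width was seen in other pairs of lists as well. In HFD, 46.6% of total H3 intervals carried H3K4me3, and 76.8% of H3K4me3 intervals had total H3. By width the HFD share was 29.1%, 67.0%, 89.5% and 99.1%, and by summits it was 41.4% for 1, 85.3% for 2 and 95.1% for 3. The most frequent background moved with these shares, at 1.08 fragments per base for HFD H3K4me3 and 1.128 for HFD total H3, and its part in the difference between diets was not tested. Control pan H4 intervals carried H3K4me3 in 44.0% of cases, with 25.01%, 58.9%, 86.9% and 98.3% by the same widths.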

How the data were processed

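ChIP-seq reads were aligned by the authors to the rat build rn6 with Bowtie2, and peaks were called with MACS2, 1 list per antibody and diet. The study names the options only as the recommended ones. Their values, and whether duplicates were removed or an input was used, are not given in the sources used here. The deposited lists give a fold enrichment (a ratio to the local background), a −log10 p-value, a −log10 q-value and, in narrow lists, the summit position, all by the authors.

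Lines with equal start and end were joined into 1 interval, whose values are those of its line of highest −log10 q. Overlaps of at least 1 bp, summit distances and Wilson intervals were computed with Python 3.11.15, NumPy 2.4.6, pandas 2.3.3 and SciPy 1.17.1. A summit's pileup k is the whole number for which (k + 1)/(b + 1) gave the fold and a Poisson mean b the p, within 0.1% for 100% of lines. The interval functions and the pileup were tested on simulated data. The number of intervals sets only the counting error of the shares, and the spread between litters or libraries could not be measured. The depth of single libraries is unknown.

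The control diet was taken from titles. Named intervals were the 3 with most summits, the 3 widest or the 3 of highest fold on chromosomes 1 to 20, X and Y. The members, classes and rules were chosen with earlier results of these data known. Gene names and sequences were not used, because the reference tables at hand describe another build. The alternatives concerned thresholds, the overlap rule, summit lines, sequences and list lengths.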

Additional observations from a re-analysis of the deposited data

How the results depend on the processing

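No paired analysis was possible because 1 deposited list stands for the 3 libraries of a group, and for the same reason no replicate could be left out. The 6 values compared are the carrying share of total H3 (48.6%), the share of H3K4me3 without total H3 (27.4%), the ratios of the carrying share by summits (2.21) and by width (3.02), the median summit distance (63 bp) and the ratio of H3K4me3 widths without over with total H3 (0.675). The 3 ratios kept their direction under every alternative run. With −log10 q of at least 5 in both lists the values were 39.7%, 8.60%, 2.83, 5.36, 48 bp and 0.610. With q of at most 0.05 they were 43.4%, 18.8%, 2.45, 3.51, 58 bp and 0.644. With at least 50% of the interval covered they were 43.6%, 32.0%, 2.11, 2.65, 58 bp and 0.709. With total H3 shortened to its 113056 intervals of highest −log10 q they were 60.7%, 39.1%, 1.75, 2.43, 60 bp and 0.649. With every summit line as its own entry the shares were 53.7% and 25.2%, the width ratio 3.07 and the ratio of H3K4me3 widths 0.615. The strongest summit inside the other list, an alternative chosen after seeing the data, gave 45.3%, 30.9%, 2.18, 2.93, 58 bp and 0.685. The other 7 values, 6 of them on chromosomes 1 to 20, X and Y only, stayed within the counting interval of the value above. Why the values moved was not tested. The stricter thresholds and the shorter list leave fewer intervals, and the part of this in the shifts was not tested either. The lists reach down to 4 fragments at a summit, and an interval with no partner shows only that no peak was listed there.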
